A study of Mus musculus with 8 samples.

Results

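The 10 genes studied here belong to the BCL2 family, which sets whether a cell starts mitochondrial apoptosis, and were followed on 8 mouse expression arrays. The genes were the pro-survival members Bcl2, Bcl2l1 and Mcl1, the effectors Bak1 and Bax, and the BH3-only members Bid, Bad, Bmf, Bcl2l11 and Pmaip1. They were chosen by name, and each was represented by its brightest probe set among those whose platform annotation gave exactly 1 gene symbol. Of the 10 genes, 9 had such a probe set, with 25 probe sets between them among 45141 on the array, and all 9 passed the filter on low values that left 12250 of 17097 genes. Bax was not analysed here.

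Of the 8 arrays, 4 were labelled Trib1 hi (hi-labelled), from acute myeloid leukaemia (AML) cells given in the labels as expressing Hoxa9 and Trib1, and 4 were labelled Trib1 null (null-labelled), from AML cells given as expressing Hoxa9 alone. Hoxa9 is a homeobox protein of blood progenitors whose excess drives AML, and Trib1 is a pseudokinase that brings C/EBP alpha to a ubiquitin ligase. The leukaemias of both groups arose in mice lacking both Trib1 alleles, and the cells were cultured untreated in serum with the cytokine IL-3. The labels give no strain, age or number of lines, and do not say whether arrays stand for separate cultures, so the spread that p-values measure may be technical.

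BCL2 family proteins meet at the outer mitochondrial membrane. Pro-survival members bind and hold back the effectors BAK and BAX, which otherwise form pores that release cytochrome c, while BH3-only proteins bind pro-survival members or activate the effectors. Myeloid progenitors and many AML cells depend on MCL1 and BCL2, and IL-3 is a survival factor that acts partly through this family.

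Values are MAS5 signals, a linear brightness scaled by the authors on each array, and differences are on the log2(signal + 2.71) scale, labelled Trib1 hi minus labelled Trib1 null. Signals below 500 could not be compared closely: the background control GC25 read 11.4 to 379 on hi-labelled arrays, highest on Trib1 hi 3, and 149 to 334.5 on null-labelled arrays. The 90th percentile was 1808 to 1985 in hi-labelled and 1899 to 1968 in null-labelled arrays. Folds were taken with signals under 500 set to 500 and are written "at least" where only 1 group held such signals. An added control transcript, dap, also read lower in hi-labelled arrays, without overlap, by 0.50 to 0.84 (log2) at group means between 610 and 2963, whereas the controls bioD and cre, at 7376 or more, differed by 0.06 or less. These controls may differ in more than brightness, which was not tested. What the lower dap reading means for genes of like brightness below, Bcl2l13, Casp6, Tnfrsf1a and Stat5b among them, was not tested either. Of members near the brightness of dap, Bcl2 was called higher, Bcl2l1 and Bad had no call, and Bak1 was called lower. The 3'/5' ratios of Actb were 1.11 to 1.12 in hi-labelled and 1.07 to 1.15 in null-labelled arrays. Trib1 itself read 35.5 ± 57.6 in hi-labelled arrays and 236 ± 46.0 in null-labelled arrays (SD, n = 4 each), against the labels but below 500 on every array. Its null-labelled values, 206 to 304, lay close to the GC25 readings of those arrays, and its hi-labelled values lay below theirs. No direction is therefore taken from Trib1. Hoxa9, labelled as present in both groups, read 10.0 to 391 in hi-labelled arrays and 969 to 1075 in null-labelled arrays, also against the label, so groups are named by their labels. Whether either probe set would detect an introduced copy is not known here. Xist, made from the inactive X of female cells, read 4.79 to 102 in hi-labelled arrays and 8286 to 9709 in null-labelled arrays (at least 17.8-fold lower, adjusted p = 3.17e-16), while the Y-linked Kdm5d, Uty and Eif2s3y were below 500 on every array; these 4 genes were named after the Xist values were seen. The labelled groups therefore differ in more than the labels state, and the animal or line of origin cannot be told apart from the label in any result below. The myeloid markers Ptprc, Lyz2, Ctsg and Fcgr3 were above 500 on every array and Csf1r below it. Of 10 tested myeloid markers 2 rose and 4 fell, against 11.1% and 19.7% of all tested genes. Mpo, a primary granule enzyme, read 5201 ± 755 in hi-labelled and 2.92 ± 0.791 in null-labelled arrays, at least 10.3-fold higher (adjusted p = 4.69e-14), and Cebpa, a granulocyte transcription factor, rose 1.80-fold (adjusted p = 1.62e-07). Itgam, an integrin of mature myeloid cells, fell 3.08-fold (adjusted p = 1.04e-15), and Csf3r and Spi1 were at least 1.65-fold and 1.61-fold lower (adjusted p = 0.000130 and 0.00121). Lyz2 was the other that fell. Their summed signal was 71520 to 101913 in hi-labelled and 87561 to 107503 in null-labelled arrays, and the part of cell makeup in the results was not tested. All 4 measured markers each of T, B and erythroid cells, and 6 of 7 of fibroblasts and endothelium, stayed below 500, and Pecam1 was 1.39-fold lower. Of 4 megakaryocyte markers 3 stayed below 500, and Itga2b read 531 on Trib1 hi 3. In bulk RNA, fewer cells of a type and less RNA per cell cannot be told apart.

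Of the 9 measured genes, 1 rose and 4 fell in hi-labelled arrays (limma, adjusted p under 0.05), against 11.1% of all tested genes called higher, 19.7% lower and 30.8% either way. Bcl2 rose, and Mcl1, Pmaip1, Bak1 and Bmf fell. These were also the members whose groups did not overlap, 1 higher and 4 lower, against 13.5% and 15.8% of all tested genes, 29.3% in all. The median difference was -0.45 over the 9 genes and 0.04 over all tested genes. After quantile normalization 2 members were higher and 4 lower, against 27.4% of genes higher and 27.4% lower, and with a floor of 500 1 was higher and 3 were lower (Bmf could not be tested), against 21.8% and 29.7%. With 9 genes, such counts are a description and set the family apart from no other group of genes. Scaling to equal array medians ended the 5 calls except that of Bmf and turned the sign for Bcl2 (difference -0.31, adjusted p = 0.839); those medians ran from 4.09 to 68.3 in hi-labelled and from 3.71 to 9.56 in null-labelled arrays, below the level at which signals could be compared.

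**Figure D1:**
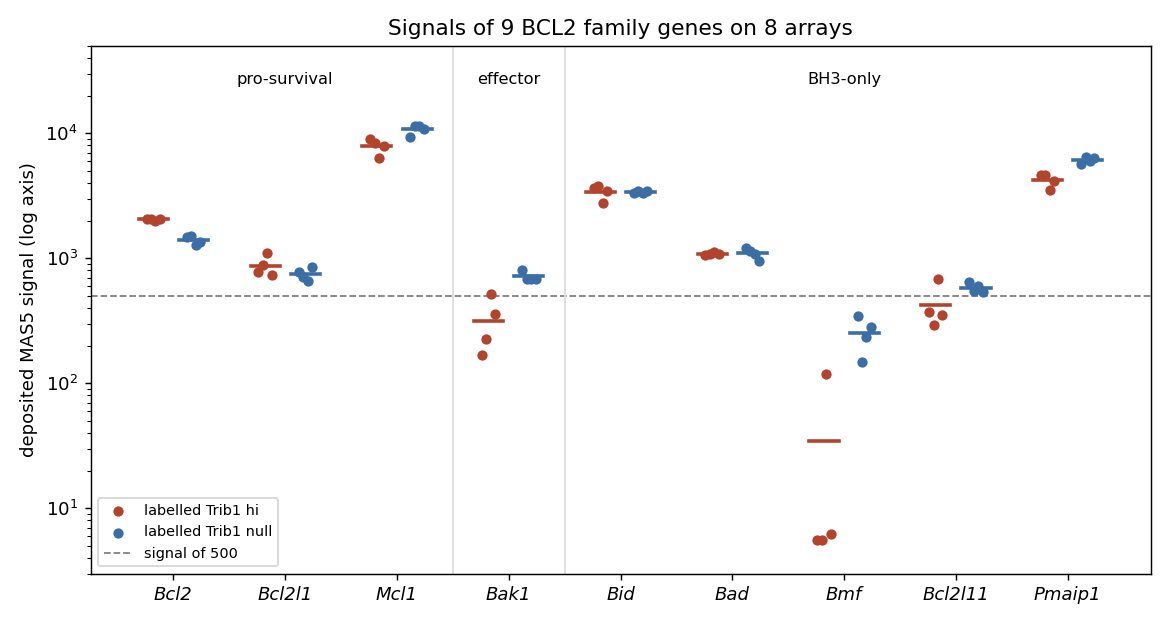
Deposited MAS5 signal (log axis) of the representative probe set of 9 BCL2 family genes, with a point for each array and a bar at the group mean of 4 arrays; the dashed line marks 500. Bcl2 was higher and Mcl1, Bak1, Bmf and Pmaip1 were lower in hi-labelled arrays without overlap.

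Bcl2, the founding pro-survival member, read 2061, 2054, 2002.5 and 2071 on hi-labelled arrays, against 1485, 1507, 1283 and 1346 on null-labelled arrays. Every hi-labelled array lay above every null-labelled array. The means of 2047 ± 30.6 in hi-labelled and 1405 ± 108 in null-labelled arrays (SD, n = 4 each) differed 1.46-fold, a difference of 0.55 with a 95% interval from 0.34 to 0.75 (limma, adjusted p = 4.68e-05). A dimmer Bcl2 probe set stayed below 500 on all arrays, at 94.8 ± 166 in hi-labelled and 165 ± 87.5 in null-labelled arrays, and did not pass (adjusted p = 0.293 with every probe set fitted on its own). The mean of both probe sets therefore had the opposite sign (-0.84, adjusted p = 0.388; alternatives spanned 6.50e-07 to 0.839).

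The Bcl2 promoter is shown because Bcl2 was the only member called higher. RefSeq places the 250 bases before its start at chr1:106714291-106714540 (GRCm38.p6, minus strand, GC content 74.8%), printed 5′ to 3′ with a match to TGACGT, the core of the cAMP response element, in capitals.
Bcl2: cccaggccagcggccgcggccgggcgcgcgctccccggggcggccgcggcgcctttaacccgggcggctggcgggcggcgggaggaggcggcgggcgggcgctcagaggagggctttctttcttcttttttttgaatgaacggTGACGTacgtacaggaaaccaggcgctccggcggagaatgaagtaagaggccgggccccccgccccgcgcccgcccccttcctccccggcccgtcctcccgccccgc
The match begins at position -107 from the start. On both strands, TGACGT occurred in 6.47% of 32851 promoter windows of this length, TGATGNAA (a C/EBP-ATF composite) in 3.45%, TTCNNNGAA (STAT) in 7.02% and TGATTNAT (HOX-PBX) in 2.82%. None of these 4 motifs was matched in the other 14 windows listed for members. A match is a description of these letters and shows no binding.

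Bcl2l1 encodes BCL-XL, a pro-survival protein of erythroid and many other cells. It read 783, 881, 1096 and 732 on hi-labelled arrays, against 783, 703, 662 and 848 on null-labelled arrays. The groups overlapped, with the highest value on Trib1 hi 3. The means of 873 ± 161 in hi-labelled and 749 ± 83.1 in null-labelled arrays differed by 0.21, with an interval from -0.11 to 0.53 (adjusted p = 0.390). Bcl2l1 was called higher after quantile normalization (0.49, adjusted p = 0.000726; alternatives spanned 0.000726 to 0.741). Its other 3 probe sets lay at 82.8 or below on every array.

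Mcl1 encodes a short-lived pro-survival protein on which granulocyte progenitors depend. Its brightest probe set read 9048, 8336, 6343 and 7947 on hi-labelled arrays, against 9319, 11384, 11370 and 10911 on null-labelled arrays. The highest hi-labelled value lay just under the lowest null-labelled value. The means of 7918 ± 1145 in hi-labelled and 10746 ± 976 in null-labelled arrays differed 1.36-fold, a decrease of -0.45 with an interval from -0.69 to -0.21 (adjusted p = 0.00315). Among 2611 genes with a mean signal over 2000, 29.0% were called higher and 22.6% lower. The call ended without a variance shared between genes (adjusted p = 0.0610; alternatives spanned 7.03e-09 to 0.5645).

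The 3 Mcl1 probe sets, which the annotation ties to a single source sequence, did not move alike. The dimmest read 1967, 1993, 1764 and 1776 on hi-labelled arrays, against 3204, 3527, 3447 and 3393 on null-labelled arrays, 1.81-fold lower (difference -0.86, adjusted p = 2.24e-07). The middle one read 3533, 3330, 2664.5 and 3631 on hi-labelled arrays, against 2965, 3189, 3062 and 3217.5 on null-labelled arrays, a difference of 0.07 with an interval from -0.15 to 0.29 (adjusted p = 0.755). In this fit of 27017 probe sets, 8.17% were called higher and 15.0% lower. The dimmest is so named by its mean over 8 arrays, and it read above the middle one on every null-labelled array. The dap control read 0.50 to 0.54 lower at group means of 1449 to 2963. The hi-labelled mean of the dimmest, 1875, lay in that range, and its null-labelled mean, 3393, lay above it. At a like brightness Bcl2 was called higher, and the part of brightness in the Mcl1 result was not tested. Within arrays, the log2 ratio of the middle to the dimmest was 0.80 ± 0.18 in hi-labelled arrays and -0.13 ± 0.04 in null-labelled arrays, a shift of 0.93. The ratio of the middle to the brightest shifted by 0.52 and that of the brightest to the dimmest by 0.41. No ratio overlapped between groups (two-sided exact permutation p = 0.0286 each, the smallest that 4 against 4 arrays allow, and 0.0286 after Benjamini-Hochberg adjustment over 3), and a factor common to an array cancels in such ratios. This comparison was chosen after the values were seen. Given the group ranges above, the ratio of the middle to the dimmest could not overlap, and its shift is made up of the other shifts. The permutation p-values therefore restate the values above and give no separate support. Where each probe set lies in the Mcl1 transcript was not known here, so a change in the mix of transcript ends or isoforms was not tested.

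**Figure D2:**
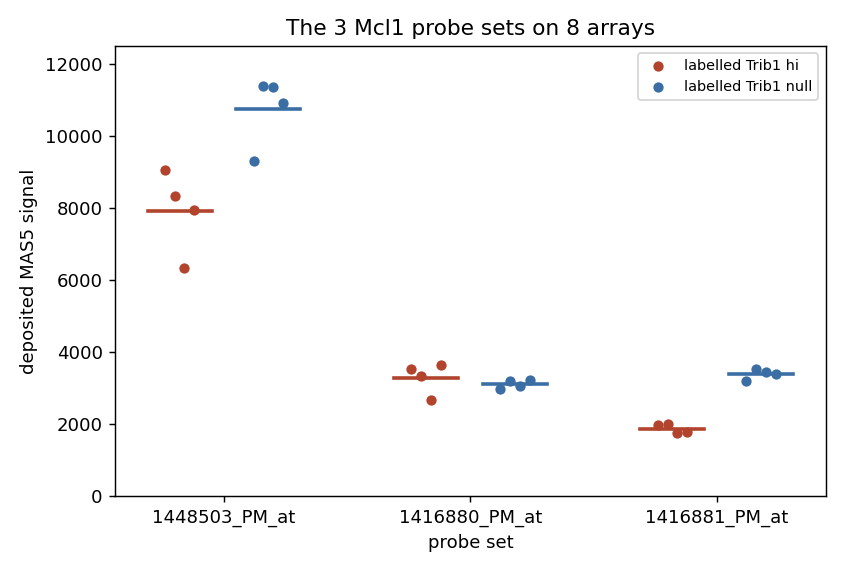
Deposited MAS5 signal (linear axis) of the 3 Mcl1 probe sets, a point per array with bars at the mean of 4. From left to right they run from the brightest to the dimmest; the groups separated at the outer ones, both lower in hi-labelled arrays, and overlapped at the middle one.

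Because scaling moves all genes of an array together, the pro-survival genes were also set against each other within arrays. The log2 ratio of Bcl2 to Mcl1 was -1.94 ± 0.20 in hi-labelled arrays and -2.93 ± 0.21 in null-labelled arrays, a 1.99-fold shift towards Bcl2 without overlap. Since Bcl2 was higher and Mcl1 lower on every hi-labelled array, this ratio could not overlap. It restates those differences and gives no separate support. The ratio of Bcl2l1 to Mcl1 shifted 1.58-fold the same way without overlap. Each had an exact permutation p of 0.0286, the smallest possible, which became 0.0571 over the 4 pairs compared and missed 0.05. Bcl2 to Bcl2l1 shifted by 0.34 and Pmaip1 to Mcl1 by -0.10, both with overlap (exact permutation p = 0.114 each, adjusted 0.114). Such ratios compare changes, not amounts, since probe sets differ in brightness per molecule, and they take the brightest probe set of each gene; at its middle probe set Mcl1 had no call.

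Bak1, a pore-forming effector, read 169, 228, 514 and 358 on hi-labelled arrays, against 803, 684, 687 and 689 on null-labelled arrays. The groups did not overlap, although Trib1 hi 3, the array with the highest background, came closest. The means were 317 ± 153 in hi-labelled and 716 ± 58.5 in null-labelled arrays, at least 1.42-fold lower (fitted difference -1.29, interval -1.86 to -0.72, adjusted p = 0.000421). The fitted size shrank to -0.69 in the quantile-normalized values and to -0.50 when signals were floored at 500, both still called, and the call ended without a shared variance (adjusted p = 0.0526) and when its probe sets were averaged (-0.29, adjusted p = 0.857; alternatives spanned 2.40e-05 to 0.857), the other of which read 65.4 or less. At a like brightness a dap probe set was at least 1.73-fold lower (610 in hi-labelled and 1073 in null-labelled arrays), and its part in this result was not tested.

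Bak1 lies on chromosome 17, where many genes were lower in hi-labelled arrays. Of 633 tested genes there, 44.9% were called lower and 2.84% higher, the highest share called lower among 20 chromosomes, and their median difference was -0.47. Within 2 Mb of Bak1, 39 of 80 other tested genes were lower, 1 was higher and 40 had no call, with a median of -0.71. Near it, the bright gene Uqcc2, a mitochondrial complex III assembly factor, read 2754 in hi-labelled and 4279 in null-labelled arrays, and Cuta 3517 in hi-labelled and 4660 in null-labelled arrays. Bnip1, whose product interacts with BCL2, lies at -238.7 kb from Bak1 by lowest coordinate and read 259 ± 222 in hi-labelled arrays and 498 ± 65.2 in null-labelled arrays (adjusted p = 0.0286, but 0.712 when floored at 500; alternatives spanned 0.00196 to 0.712). Uqcc2 and Cuta were named after their values were seen. The part that position on chromosome 17 has in the Bak1 difference was not tested. The 250 bases before the Bak1 start, printed so that this position can be placed, lie at chr17:27028628-27028877 (GRCm38.p6, minus strand).
Bak1: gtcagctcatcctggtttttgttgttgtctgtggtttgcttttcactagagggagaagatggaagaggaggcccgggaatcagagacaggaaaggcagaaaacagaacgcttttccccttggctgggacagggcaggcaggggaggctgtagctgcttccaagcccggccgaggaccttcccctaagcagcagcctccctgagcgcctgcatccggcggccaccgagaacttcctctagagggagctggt

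**Figure D3:**
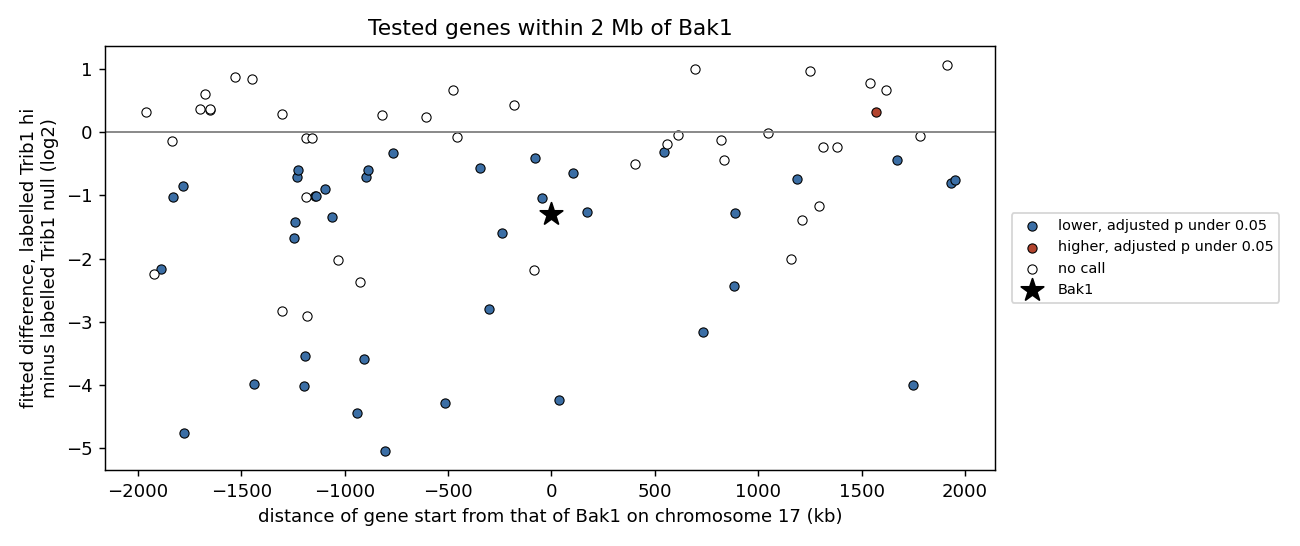
Fitted log2 difference, labelled Trib1 hi minus labelled Trib1 null, of tested genes against the distance of their lowest coordinate from that of Bak1 (kb). Filled points passed the threshold, and Bak1 (star, -1.29) lies among 39 other genes called lower on both sides of it.

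Among BH3-only genes, Pmaip1 encodes NOXA, which binds MCL1 and promotes its degradation. It read 4616, 4656, 3498 and 4131 on hi-labelled arrays, against 5675, 6454, 6031 and 6384 on null-labelled arrays. All hi-labelled arrays lay below all others. The means of 4225 ± 540.2 in hi-labelled and 6136 ± 359 in null-labelled arrays differed 1.46-fold, a decrease of -0.55 with an interval from -0.75 to -0.34 (adjusted p = 5.31e-05). Scaling to equal medians ended the call (adjusted p = 0.502; alternatives spanned 4.26e-10 to 0.502).

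Bmf, a BH3-only protein held at the cytoskeleton in healthy cells, read 5.56, 5.59, 120 and 6.26 on hi-labelled arrays, against 348, 147, 236 and 282 on null-labelled arrays. The groups did not overlap, but all 8 values were below 500, and those of null-labelled arrays (147 to 348) lay close to their GC25 readings, so no fold is given. The call was marginal (difference -3.88, interval -6.89 to -0.88, adjusted p = 0.0431) and ended without any array except Trib1 hi 3 (adjusted p = 0.0842 to 0.174) and with the replicate block (adjusted p = 0.0874; alternatives spanned 8.16e-08 to 0.606). Without Trib1 hi 3 the adjusted p was 0.000215. Its other 2 probe sets read 33.8 or less.

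Bcl2l11 encodes BIM, which binds all pro-survival members and mediates death after cytokine withdrawal. It read 374, 292, 684 and 349 on hi-labelled arrays, against 642, 549, 598 and 541 on null-labelled arrays. Trib1 hi 3 was the highest of all 8 arrays, and the other 3 hi-labelled arrays were below all null-labelled arrays. The means of 425 ± 176 in hi-labelled and 583 ± 46.9 in null-labelled arrays differed by -0.53, with an interval from -1.04 to -0.02, and missed the threshold (adjusted p = 0.115). Without Trib1 hi 3 the difference was -0.78 and passed (adjusted p = 0.00131), whereas quantile normalization gave 0.0090 (adjusted p = 0.947; alternatives spanned 0.00131 to 0.947). None of its 4 dimmer probe sets passed where tested, and after quantile normalization a pair of them were higher, by 0.52 and 1.34 (adjusted p = 0.00832 and 0.000538), with all their values under 500.

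Bid and Bad showed no called change at their bright probe sets. Bid, which caspase-8 cleaves to link death receptors to mitochondria, read 3652, 3801, 2787 and 3437 on hi-labelled arrays and between 3328 and 3460 on null-labelled arrays. The groups overlapped, with Trib1 hi 1 and Trib1 hi 2 above and Trib1 hi 3 below all null-labelled arrays. The difference was 0.00 with an interval from -0.20 to 0.20 (adjusted p = 0.994), and a second bright Bid probe set differed by 0.01 (890.4 ± 83.7 in hi-labelled and 882 ± 49.4 in null-labelled arrays, adjusted p = 0.979). Bad, which growth factor signalling holds inactive by phosphorylation, read 1071 to 1131 on hi-labelled arrays, within the 956 to 1207.5 of null-labelled arrays. Its difference was -0.01, with an interval from -0.25 to 0.24 (adjusted p = 0.985). A dimmer Bad probe set, at 206 ± 223 in hi-labelled and 445 ± 113 in null-labelled arrays, passed when fitted on its own (adjusted p = 0.0268) but not when quantile-normalized (0.419) or floored at 500 (0.982). Phosphorylation and cleavage were not measured.

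**Figure D4:**
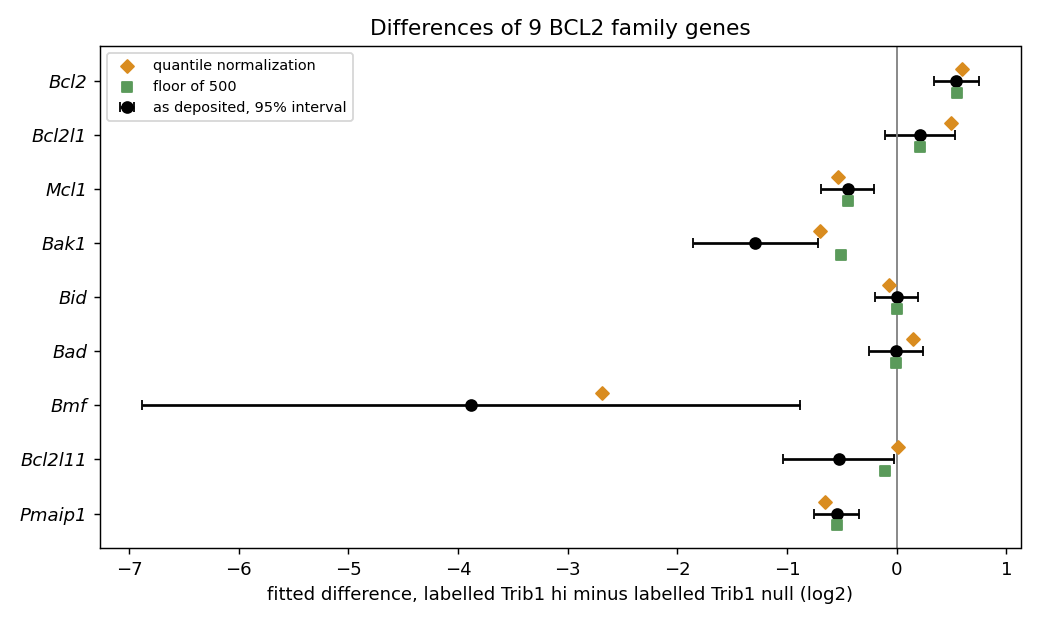
Fitted log2 difference of each of 9 genes, labelled Trib1 hi minus labelled Trib1 null; points with 95% intervals use the deposited values, diamonds quantile normalization and squares a floor of 500 (Bmf, below 500 throughout, has no square). Bcl2, Mcl1 and Pmaip1 kept their direction and call under both, as did Bak1 at a smaller size, and Bcl2l11 moved towards 0.

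Of 19 further BCL2 homologues and related genes, 17 had a probe set and 14 were tested. By limma 0 rose, 3 fell (Bcl2l13, Bnip3l and Bnip1) and 11 had no call, with a median difference of 0.19. Among all tested genes 11.1% rose and 19.7% fell, and the counts of this and the following lists are descriptions. Bcl2l13, an outer mitochondrial membrane protein, read 467 ± 181 in hi-labelled and 833 ± 48.7 in null-labelled arrays, at least 1.51-fold lower (adjusted p = 0.000982), and its second probe set 382 ± 209 in hi-labelled and 807 ± 44.3 in null-labelled arrays. Bnip3l, a mitophagy receptor, was 1.20-fold lower (4507 ± 673 in hi-labelled and 5367 ± 227 in null-labelled arrays, adjusted p = 0.0493; alternatives spanned 5.04e-06 to 0.593), and the call ended under 14 of 17 alternatives. Bcl2l2, the pro-survival BCL-W, read 694 ± 131 in hi-labelled and 841 ± 70.9 in null-labelled arrays (adjusted p = 0.200) and passed as lower without Trib1 hi 3 (0.0362, range over alternatives 0.0362 to 0.963). Bbc3, the BH3-only PUMA, read 357 ± 167 in hi-labelled and 256 ± 102 in null-labelled arrays (adjusted p = 0.497), and was called higher only after quantile normalization (9.54e-07) among the alternatives run, with most values under 500. Bcl2a1a, a pro-survival gene of myeloid cells, read 71.4 ± 123 in hi-labelled and 2.78 ± 0.436 in null-labelled arrays without overlap (adjusted p = 0.123), with 257 on Trib1 hi 3 against 8.64 to 10.2 on the other hi-labelled arrays. It was called higher without Trib1 hi 3 (0.000592), after quantile normalization (1.23e-08) and with equal medians (0.000329; alternatives spanned 1.23e-08 to 0.293). Bok read 34.6 ± 57.3 in hi-labelled and 46.1 ± 75.1 in null-labelled arrays, and all values of both genes were below 500.

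Downstream of the family, of 11 tested mitochondrial partners and released proteins, 3 rose and 1 fell, with a median of 0.24. The shares over all tested genes were 11.1% and 19.7%. Diablo, which encodes SMAC, an antagonist of inhibitor of apoptosis proteins, read 1025 ± 110.1 in hi-labelled arrays and 301 ± 62.0 in null-labelled arrays, at least 2.04-fold higher (adjusted p = 2.59e-08). Cycs, cytochrome c, rose 1.67-fold (10257 ± 1439 in hi-labelled and 6117 ± 420.2 in null-labelled arrays, adjusted p = 2.76e-06). Vdac3, an outer membrane channel, rose 1.47-fold (adjusted p = 0.000504), and Htra2, a mitochondrial protease, fell 1.20-fold (adjusted p = 0.0271), a call lost under 6 of 17 alternatives (4.23e-06 to 0.571). Averaging probe sets ended the calls of Diablo (adjusted p = 0.186; alternatives spanned 3.02e-13 to 0.579) and Cycs (0.109; alternatives spanned 7.98e-11 to 0.946), and equal medians turned the sign for Cycs (-0.12), Vdac3 (-0.30) and Parp1 (-0.30).

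Of 8 tested apoptosome and caspase genes, 1 rose and 3 fell, against 11.1% and 19.7% of all tested genes, with a median of -0.55. Apaf1, the scaffold that cytochrome c assembles into the apoptosome, read 1924 ± 126 in hi-labelled and 3662 ± 414 in null-labelled arrays, 1.90-fold lower (adjusted p = 2.96e-09). Casp6, an executioner caspase, fell 1.59-fold (1794 ± 103 in hi-labelled and 2849 ± 211 in null-labelled arrays, adjusted p = 8.88e-07), though not when its probe sets were averaged (0.871; alternatives spanned 3.87e-10 to 0.871). Parp1, a DNA repair enzyme cleaved in apoptosis, rose 1.47-fold (adjusted p = 0.000345). That call ended when its probe sets were averaged (0.33, adjusted p = 0.0959, range over alternatives 1.77e-07 to 0.837). Dffa, the inhibitor of the apoptotic nuclease, read 101 ± 146 in hi-labelled and 338 ± 71.9 in null-labelled arrays (adjusted p = 0.0235), below 500 throughout. The Dffa call was lost under 9 of 15 alternatives (0.000829 to 0.127).

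Of 6 inhibitor of apoptosis genes and their modulators, 1 rose and 4 fell, against 11.1% and 19.7% of all tested genes. Their median difference was -0.50. Birc2 and Birc3, ubiquitin ligases of TNF receptor signalling, fell 1.41-fold and 1.42-fold (adjusted p = 0.0119 and 9.86e-05), and Birc6, on chromosome 17, 1.42-fold (adjusted p = 0.000104). Averaging probe sets ended the calls of Birc3 (-0.15, adjusted p = 0.902; alternatives spanned 1.06e-06 to 0.902) and Birc6 (0.642; alternatives spanned 1.96e-06 to 0.642), and that of Birc2 ended under 5 of 17 alternatives (0.00132 to 0.411). The dap control read 1.41-fold to at least 1.73-fold lower at group means from 610 to 2963; its part here was not tested. Xaf1, a XIAP antagonist, read 119 ± 206 in hi-labelled and 301 ± 56.3 in null-labelled arrays (adjusted p = 0.0394), below 500 throughout, a call lost under 11 of 15 alternatives (0.000186 to 0.454). Birc5, survivin, was the gene of this list that rose (1.23-fold, adjusted p = 0.0308); it was named after its value was seen.

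Of 6 tested death receptor genes, 0 rose and 2 fell, against 11.1% and 19.7% of all tested genes, with a median of -1.40. Tnfrsf1a, the TNF receptor, fell 1.89-fold (935 ± 139.9 in hi-labelled and 1758 ± 48.7 in null-labelled arrays, adjusted p = 1.12e-07), and Fas was below 500 on all hi-labelled arrays and read 620 ± 56.4 in null-labelled arrays, at least 1.24-fold lower (adjusted p = 0.000375). The other 4 had no call.

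**Figure D5:**
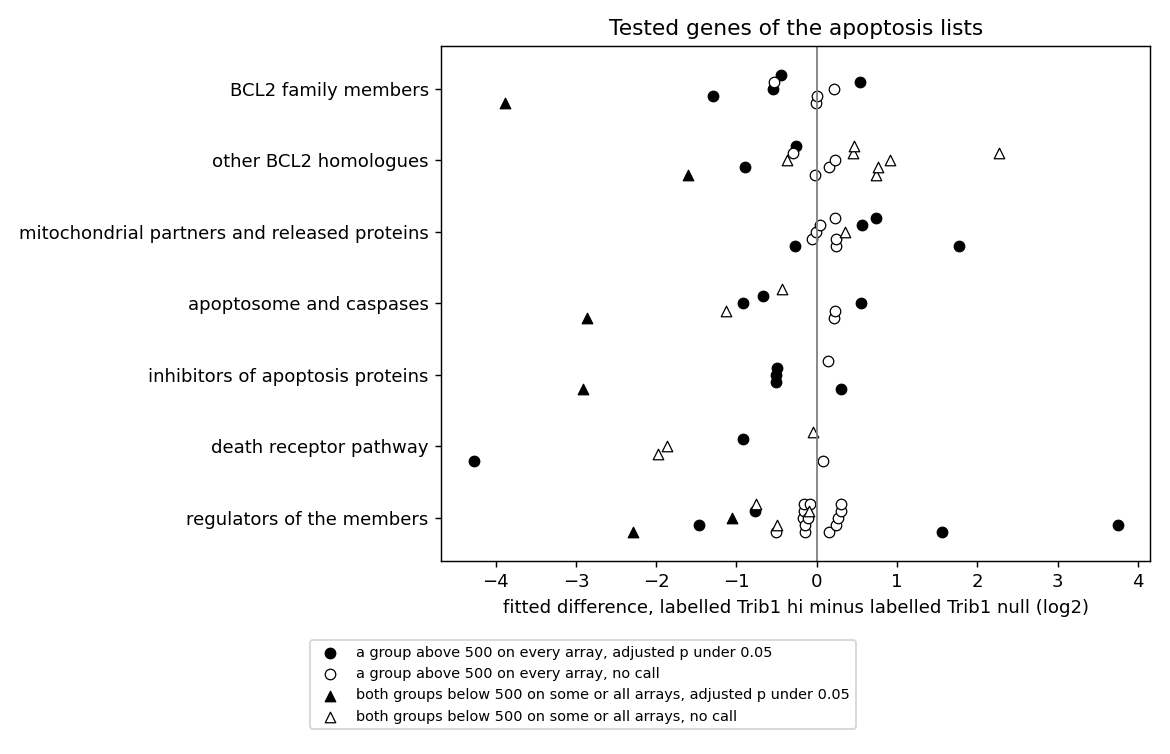
Fitted log2 difference, labelled Trib1 hi minus labelled Trib1 null, of each tested gene in 7 lists of apoptosis genes; filled symbols passed the threshold and triangles are genes with signals below 500 in both groups. The BCL2 family members ran from -3.88 (Bmf, a triangle) to 0.55 (Bcl2).

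Of 22 tested genes that regulate the members, 2 rose and 4 fell, against 11.1% and 19.7% of all tested genes. Their median difference was -0.14. Ddit3, the stress transcription factor CHOP, read 5572 ± 791 in hi-labelled and 409 ± 51.1 in null-labelled arrays, at least 11.1-fold higher (adjusted p = 2.71e-22), and Atf4, which acts upstream of it, rose 2.95-fold (adjusted p = 1.49e-11). In other cells CHOP is known to lower Bcl2 and raise Bcl2l11 and Bbc3, and ATF4 to raise Pmaip1. Here Bcl2 rose, Pmaip1 fell, and Bcl2l11 and Bbc3 had no call in the main fit. Bbc3 was called higher after quantile normalization, and Bcl2l11 lower without Trib1 hi 3. Whether CHOP or ATF4 acts on these genes here was not tested. Il3ra, the alpha chain of the IL-3 receptor, read 269 ± 230.2 in hi-labelled and 547 ± 17.4 in null-labelled arrays (adjusted p = 0.00967, but 0.352 when floored at 500; alternatives spanned 0.000788 to 0.352), whereas its beta chains Csf2rb (11497 ± 2117 in hi-labelled and 12751 ± 1218 in null-labelled arrays) and Csf2rb2 had no call (adjusted p = 0.438 and 0.318). Fbxw7, part of a ubiquitin ligase that targets MCL1, read 128 ± 157 in hi-labelled and 401 ± 65.9 in null-labelled arrays (adjusted p = 0.00948), below 500 throughout. Its groups overlapped, and the call was lost under 2 of 15 alternatives (0.000182 to 0.0925). Stat5b, a transcription factor activated by IL-3, was at least 1.65-fold lower (adjusted p = 0.000752), and Hoxa9, which in mouse myeloid progenitors sustains Bcl2, at least 2.05-fold lower (adjusted p = 5.15e-06), against its label as above. Stat5a, of the same list, had no call (323 ± 153 in hi-labelled and 325 ± 64.0 in null-labelled arrays, adjusted p = 0.906), with most values under 500. Csf2rb, Csf2rb2, Stat5a and Stat5b were named after their values were seen.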

How the data were processed

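Per the submitters' processing notes, the authors made the deposited intensities with MAS5, of unstated version and settings. Symbols came from the platform annotation (28898 probe sets with 1 symbol, 551 with several, 15588 others with none listed, 104 controls), and the brightest probe set over 8 arrays stood for each gene. Values were taken as log2(intensity + 2.71), the 25th percentile of all values, and genes with a mean above 3.01, the 40th percentile, were tested with limma 3.58.1 in R 4.3.3 (lmFit, eBayes with trend, two-sided, Benjamini-Hochberg over 12250 genes, threshold 0.05). The code was tested on simulated data. With 4 arrays a group, precision is limited by their number. The members and gene lists were chosen with earlier results of these data known. Named were all members, related homologues (Bcl2a1a, Bcl2l2, Bbc3, Bok), from each apoptosis list the called genes with the greatest change (at most 4), and the label checks Trib1 and Hoxa9. Bax and some genes of the other lists were not analysed here. Alternatives were quantile normalization, equal medians, floors of 500 and 1000, a pseudocount of 100, no filter, the mean of probe sets, no shared variance, a replicate block, each array left out and, added after seeing the data, every probe set on its own. Promoters came from RefSeq (GRCm38.p6), which listed 9 of the 10 genes.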

Additional observations from a re-analysis of the deposited data

Results flagged for a closer look

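Within groups of 4 arrays, 2 of 18 sets of member values held an array far from the others by Dixon's gap test, of which chance gives about 1 in 20. Bmf on Trib1 hi 3 read 120 against 5.56 to 6.26 on the other 3 arrays labelled Trib1 hi (gap over range 0.994). Trib1 hi 3 also had the highest GC25 background, 379. Bak1 on Trib1 null 1 read 803 against 684 to 689 on the other 3 labelled Trib1 null (gap over range 0.961), and that array had the highest GC25 reading of its group, 334.5.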

How the results depend on the processing

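Over 34 named genes (the members and those named by rule from the apoptosis lists) and the alternatives, 443 results kept their direction and side of the threshold, 95 lost a call, 8 gained one and 21 turned in sign. Counts of all genes called higher and lower (1363 and 2409) were 3357 and 3352 after quantile normalization, 172 and 2179 with equal medians, 711 and 1285 with the mean of probe sets, 1273 and 1420 with a floor of 1000, 1103 and 1379 without a shared variance, and 1153 to 2103 and 1964 to 3768 with an array left out, highest without Trib1 hi 3. Equal medians moved the median difference of all genes to -0.78, and leaving out Trib1 hi 3 moved it to -0.32, against 0.04. Members called higher and lower (1 and 4) were 2 and 4 after quantile normalization, 0 and 1 with equal medians, 0 and 2 with the mean of probe sets, 1 and 2 with a floor of 1000 or without a shared variance, and 1 and 3 to 5 with an array left out. Sign turned with equal medians for Bcl2 (-0.31), Bcl2l1 (-0.64), Bid (-0.86), Bbc3 (-0.38), Cycs (-0.12), Vdac3 (-0.30) and Parp1 (-0.30), with the mean of probe sets for Bcl2 (-0.84), after quantile normalization for Bid (-0.072), Bad (0.15) and Bcl2l11 (0.0090), and with an array left out for Bid (-0.053 to 0.10), Bad (-0.070 to 0.042) and Bok (-1.34 to 0.59). The cause was not tested. Deviations of same-numbered arrays from their group means correlated at -0.51, 0.49, -0.29 and 0.37 over 12250 tested genes. Of these genes 5898 were below 500 on every array, so the correlations cannot settle whether replicate numbers pair the arrays. With the replicate block, 1284 genes were higher and 2346 lower, and 1 member was higher and 3 lower. Signal over background limits Bmf, Bak1, Bcl2l11 and every gene below 500.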
